A study of Danio rerio with 12 samples.

Results

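A set of 58 genes was examined that had their lowest levels in larvae mutant for zbtb24 alone. They were chosen by a rule on measured levels, from the 32271 rows of a table of expression levels in 12 libraries. A row was taken when its mean over the 12 libraries was at least 1 FPKM (fragments per kilobase of transcript and unit of library size), when all 3 zbtb24 mutant libraries lay below all 9 other libraries, and when the zbtb24 mutant mean was at most 0.6 times the mean of each other genotype. Of the 19424 rows with a mean of at least 1 FPKM, 711 had all 3 zbtb24 mutant libraries below the other 9, and 58 of these also met the ratio. Because these values chose the genes, their levels in zbtb24 mutants are given as a description, without a test.

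The libraries came from zebrafish larvae at 3 weeks of age, each from a pool of 10 whole larvae, and each genotype had 3 libraries. The zbtb24 mutants were homozygous for the mk22 allele, a large deletion of coding exons, and carried functional mda5. The double mutants were homozygous for zbtb24 mk22 and for mda5 mk29, a small deletion within the sequence of the helicase domain. The mda5 mutants were homozygous for mda5 mk29 alone, and WT larvae carried neither allele. Each mutant genotype rested on a single allele of each gene, and no source used here says that pools of a genotype came from separate clutches, so that p-values measure the spread between pools. The sample labels name fin as the source, whereas the study design describes whole larvae. Markers of exocrine pancreas, liver and lens, tissues that a fin lacks, were present in all 12 libraries.

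Zbtb24 is a zinc finger protein whose loss in people causes ICF syndrome, an inherited immunodeficiency with facial anomalies and loss of DNA methylation next to centromeres. In mammals it is needed for expression of Cdca7, which works with the remodeller Hells to keep those regions methylated. Mda5, encoded by mda5 (also named ifih1), is a cytoplasmic helicase that binds long double-stranded RNA and starts the type I interferon response. A gene that is low in zbtb24 mutants and not in double mutants is thus one whose level differed between zbtb24 mutant larvae with and without the RNA sensor.

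The CDCA7 row separated the genotypes, with 0.0118, 0.0676 and 0.0665 FPKM in zbtb24 mutants and 0.0445, 0.0587 and 0.101 in double mutants, against 2.604, 2.83 and 2.53 in mda5 mutants and 3.48, 2.56 and 3.17 in WT. The ZBTB24 row was higher in all 6 libraries with the deletion, at 1.74, 1.396 and 1.06 FPKM in zbtb24 mutants and 1.4, 1.23 and 1.47 in double mutants, against 0.469, 0.538 and 0.477 in mda5 mutants and 0.348, 0.5102 and 0.587 in WT. Reads of exons outside the deletion can still count toward this row, so it does not check the labels. Which exons the reads came from was not examined, and why the row was higher was not tested. By quantitative PCR, the study could detect no zbtb24 transcripts in younger homozygotes, which differs from this row. The IFIH1 row held 1.35, 1.87 and 1.54 FPKM in zbtb24 mutants, 0.573, 0.559 and 0.381 in double mutants, 0.354, 0.613 and 0.493 in mda5 mutants and 0.751, 0.732 and 0.8196 in WT, which is lowest in the libraries with the mda5 allele. The number of fragments per library was not part of the values used here. Summed FPKM ran between 5811530 and 12214500 per library, and the 4 most abundant features took 84.2% to 89.9% of it.

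A single library carried much of the selection. The zbtb24 mutant replicate 3 was the lowest of the 3 zbtb24 mutant libraries for 48 of the 58 genes (82.8%), against 44.1% of all 19424 rows. It lay below 0.5 times the mean of replicates 1 and 2 for 31 of the 58 (53.4%), against 5.96% of all rows. The rule used these values, so the shares among the 58 are conditioned on it. Those of all rows are given only for scale. The median correlation of replicate 3 with libraries of its own genotype, across genes, was 0.919, the lowest of the 12 libraries, whose other values ran from 0.931 to 0.952. When the rule was applied without it, 44 rows were found, of which 19 were among the 58, and 39 of the 58 no longer met the rule. Among the other genotypes, leaving out double mutant replicate 1 kept the fewest, 37 of the 58, with 44 rows found. The levels below are therefore given for each library, and the genes that also met the rule without replicate 3 are named as such.

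Most of the 58 genes were expressed at low to moderate levels, with means over the 12 libraries of 1.07 to 113.8 FPKM and a median of 8.33 FPKM, against a median of 5.91 FPKM over all rows with at least 1 FPKM. Their summed levels were 652, 622 and 289 FPKM in zbtb24 mutants, 1226, 894 and 832 FPKM in double mutants, 1004, 996 and 1205 in mda5 mutants and 1232, 1438 and 1530 FPKM in WT. The median ratio of the zbtb24 mutant mean was 0.524 to the double mutant mean, 0.490 to the mda5 mutant mean and 0.380 to the WT mean. The margin between the genotypes was narrow for many of them. In 24 of the 58, the lowest of the 9 other libraries was within 1.1 times the highest zbtb24 mutant library, and the median of this ratio was 1.13. That lowest library was a double mutant in 41 genes, an mda5 mutant in 15 and a WT library in 2. In pools of whole larvae, fewer cells of a type and less RNA per cell cannot be told apart.

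**Figure D1:**
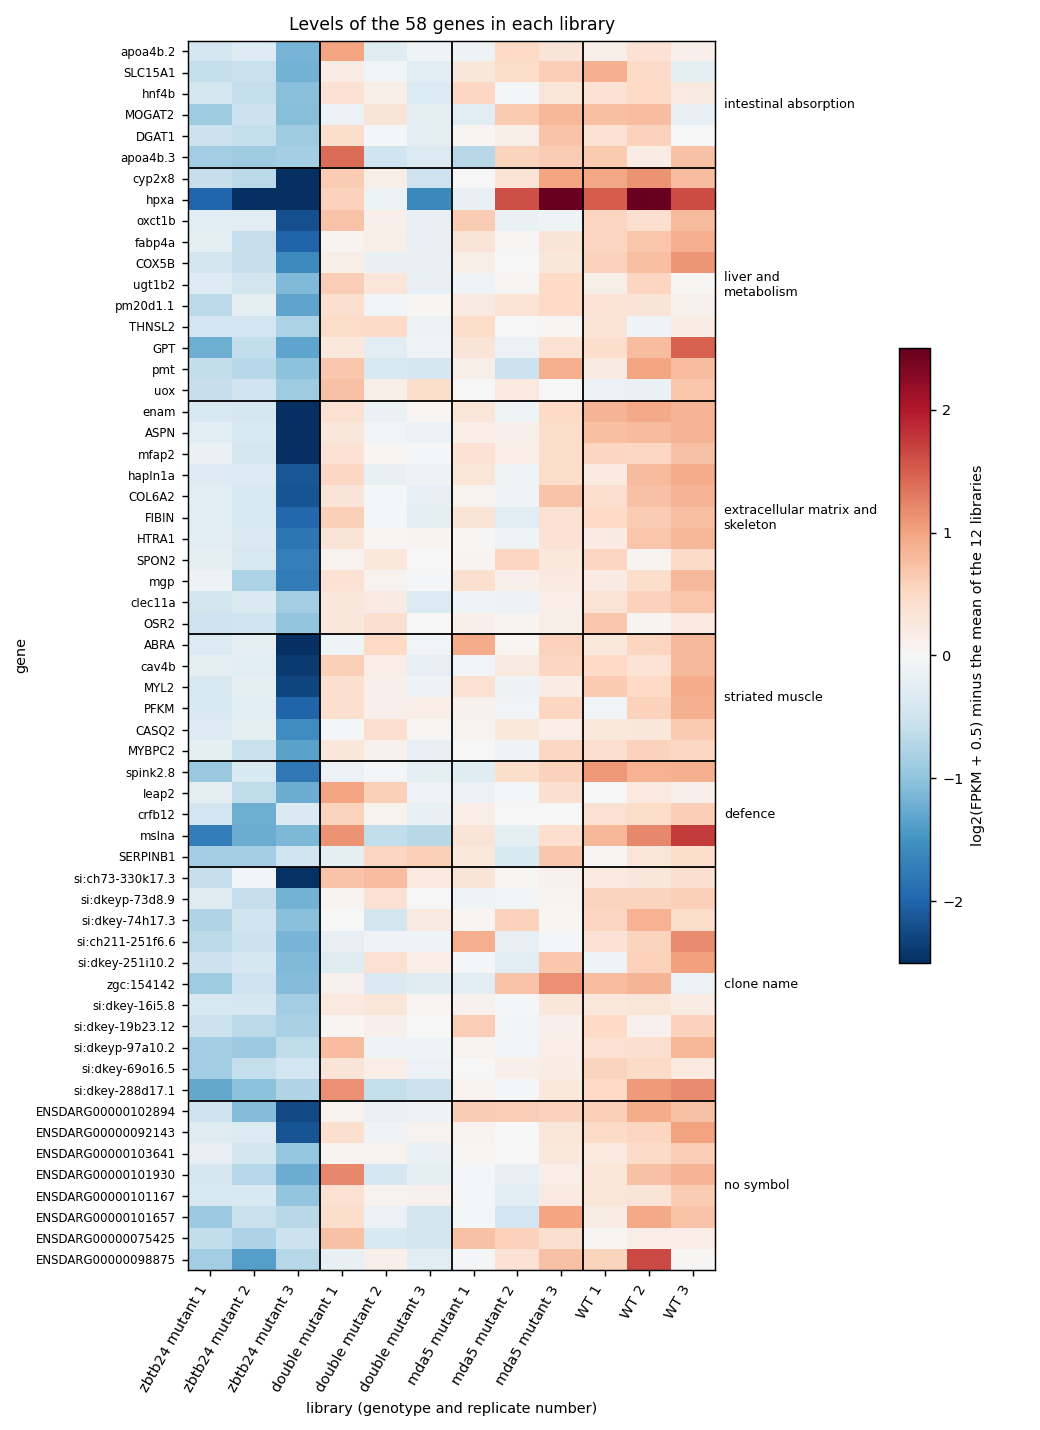
Level of each of the 58 genes (rows, grouped by role) in each of the 12 libraries (columns, 3 per genotype), as log2(FPKM + 0.5) minus the gene's mean over the 12 libraries, with blue lower and red higher. The zbtb24 mutant columns are the 3 lowest of every row. Replicate 3 is the lowest for all 11 liver and metabolism, all 11 matrix and all 6 muscle genes. Its median differences there were -1.32, -1.95 and -2.15.

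The gene table paired 50 of the 58 rows with a symbol, spelled here as it gives them, and 9 of those symbols are shared with a second row. How similar such rows are in sequence, and whether reads were divided between them, was not examined. From their names and known functions, 6 genes were placed in intestinal absorption, 11 in liver and metabolism, 11 in extracellular matrix and skeleton, 6 in striated muscle and 5 in defence. A further 11 carry only a clone name and 8 have no symbol. These groups were made after the values had been seen.

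The genes of intestinal absorption act in the enterocyte, which takes up fat and peptides and exports fat as lipoproteins. apoa4b.2 and apoa4b.3 encode apolipoproteins of the ApoA-IV type, which coat those particles. apoa4b.2 had 73.05, 79.4 and 44.2 FPKM in zbtb24 mutants, 199, 80.4 and 93.6 in double mutants, 91.3, 141 and 125.1 in mda5 mutants and 110.4, 129 and 109 in WT. Its high value in double mutants came from replicate 1, and double mutant replicate 2 lay just above zbtb24 mutant replicate 2. apoa4b.3 was even in zbtb24 mutants, at 3.38, 3.34 and 3.45 FPKM, against 18.3, 4.52 and 5.11 in double mutants, 3.93, 10.03 and 10.6 in mda5 mutants and 10.8, 7.598 and 11.3 in WT. Here too double mutant replicate 1 stood far above the other 2 double mutant libraries. These are tandem copies, with 1 protein-coding gene between them in the gene order of the GRCz12tu assembly, and no other pair among the 28 members matched there by symbol had fewer than 3 genes between. How the reads were divided among the copies is uncertain. The third copy, apoa4b.1, was not selected and had 219, 242 and 88.5 FPKM in zbtb24 mutants, 339, 253 and 230.1 in double mutants, 230.1, 249 and 216 in mda5 mutants and 303, 269 and 217 in WT, so that only zbtb24 mutant replicate 3 lay clearly below the rest.

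MOGAT2 and DGAT1 encode the acyltransferases that rebuild triglyceride from absorbed fat. MOGAT2 had 3.56, 4.697 and 3.09 FPKM in zbtb24 mutants, 6.33, 8.89 and 5.91 in double mutants, 5.71, 11.4 and 12.9 in mda5 mutants and 12.1, 12.3 and 6.001 in WT. All 3 double mutant libraries and 1 library each of mda5 mutants and WT stayed below the highest 4 values. DGAT1 had 6.87, 6.52 and 5.29 FPKM in zbtb24 mutants, 13.9, 9.996 and 8.46 in double mutants, 10.6, 11.3 and 17.02 in mda5 mutants and 13.4, 15.5 and 10.1 in WT. A second DGAT1 row was not lowered, with 9.95, 10.5 and 10.7 FPKM in zbtb24 mutants, 10, 13.3 and 11.2 in double mutants, 10.6, 10.16 and 10.4 in mda5 mutants and 12.1, 11.3 and 10.02 in WT. SLC15A1, an apical transporter of small peptides, had 4.03, 4.19 and 2.52 FPKM in zbtb24 mutants, 7.35, 6.04 and 5.13 in double mutants, 7.899, 8.91 and 10.1 in mda5 mutants and 12.2, 9.102 and 5.41 in WT. For SLC15A1 the double mutants were all below the mda5 mutants, and a second SLC15A1 row was low only in zbtb24 mutant replicate 3, with 23.2, 19.1 and 4.72 FPKM in zbtb24 mutants and 22.4, 27.7 and 20.8 in double mutants, against 26.3, 34.8 and 31.99 in mda5 mutants and 26.1, 19.5 and 16.5 in WT. hnf4b, a nuclear receptor of the Hnf4 family that is expressed in gut, had 3.53, 3.11 and 2.15 FPKM in zbtb24 mutants, 6.54, 5.58 and 3.82 in double mutants, 7.31, 4.87 and 6.25 in mda5 mutants and 6.51, 7.26 and 5.88 in WT, whereas its relative HNF4A stayed within the range of WT in all libraries, at 8.41, 9.004 and 9.51 FPKM in zbtb24 mutants and 9.71, 10.3 and 9.57 in double mutants, against 8.97, 8.49 and 10.4 in mda5 mutants and 14.4, 9.94 and 7.24 in WT. In none of the 6 intestinal genes did zbtb24 mutant replicate 3 fall below 0.5 times the mean of replicates 1 and 2 (range 0.580 to 1.03). Only apoa4b.3 and MOGAT2 met the rule without it. For the other 4, the mean of replicates 1 and 2 was at most 0.666 times that of the nearest genotype, which is the one with the lowest mean of the other 3. In a list of genes of intestinal absorption and brush border, 17 remained after apoa4b.2 and apoa4b.3 were set aside, and of these limma called 0 lower and 0 higher in zbtb24 mutants against WT at an adjusted p under 0.05, and 0 lower and 1 higher without replicate 3. Over all features, 6.65% were lower and 4.92% higher, and 3.24% were lower without replicate 3. The median log2 change of the 17 was -0.55, and -0.51 without replicate 3. With so few genes, 0 calls does not show that the list was unchanged. This list and those below were chosen with earlier results of these data known. The zbtb24 mutant libraries compared are also those that the rule used, so shares of list genes called are given only for scale. The list also names slc15a1a and slc15a1b, but the selected SLC15A1 row was not matched to either symbol. Summed intestinal markers (fabp2, apoa4a and vil1) were 160, 179 and 99.3 FPKM in zbtb24 mutants, 329, 297 and 200.3 FPKM in double mutants, 143, 215 and 247 in mda5 mutants and 312, 285 and 231 FPKM in WT, and their part in these levels was not tested.

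The lowest ratio of all belonged to hpxa, which encodes hemopexin, a plasma protein that binds free heme. It had 3.13, 1.45 and 0.215 FPKM in zbtb24 mutants, 20.7, 12.6 and 4.18 in double mutants, 12.1, 43.2 and 78.6 in mda5 mutants and 40.6, 139.7 and 43.7 in WT, and the zbtb24 mutant mean was 0.128 times the double mutant mean and 0.0214 times the WT mean. The levels varied widely within each genotype, and hpxa met the rule with and without zbtb24 mutant replicate 3. The second hemopexin gene, hpxb, was not low, with 16.3, 27.3 and 26.1 FPKM in zbtb24 mutants, 21.3, 45.7 and 16.5 in double mutants, 17.5, 20.3 and 23.97 in mda5 mutants and 22.97, 22.3 and 38.3 in WT. The 2 erythrocyte markers that could be matched, summed, ran in the same order of genotype means as hpxa, with 15.7, 5.99 and 3.06 FPKM in zbtb24 mutants, 166.7, 14.9 and 9.94 FPKM in double mutants, 32.2, 49.7 and 454 in mda5 mutants and 338, 684 and 713 FPKM in WT. Their part in the level of hpxa was not tested.

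The other genes of liver and metabolism divide into enzymes of detoxification, amino acids and phospholipids on the one hand and fuel genes on the other. cyp2x8, a cytochrome P450, had 4.31, 3.999 and 0.279 FPKM in zbtb24 mutants, 10.6, 7.39 and 4.49 in double mutants, 6.73, 8.59 and 13.7 in mda5 mutants and 13.5, 15.1 and 11.73 in WT. Its level in zbtb24 mutant replicate 3 was 0.0671 times the mean of the other 2 zbtb24 mutant libraries, the lowest such ratio of the 58 genes, yet replicates 1 and 2 alone still met the rule. GPT, an alanine aminotransferase, had 7.05, 10.9 and 6.51 FPKM in zbtb24 mutants, 20.5, 14.2 and 15.98 in double mutants, 21.3, 15.3 and 22.4 in mda5 mutants and 23.2, 29.6 and 47.99 in WT, so that WT lay above both genotypes with the mda5 allele as well. A second GPT row had a ratio of 0.884 to the nearest genotype. uox, which encodes urate oxidase, had 40.02, 42.6 and 32.2 FPKM in zbtb24 mutants, 100.4, 66.05 and 81.8 in double mutants, 59.8, 71.5 and 60.3 in mda5 mutants and 54.4, 53.1 and 97.3 in WT. It was among the 12 genes in which WT did not have the highest mean, since double mutants were higher. THNSL2, a threonine synthase-like gene, pmt, a phosphoethanolamine methyltransferase, ugt1b2, a glucuronosyltransferase, and pm20d1.1, whose mouse relative forms N-acyl amino acids, had ratios to the nearest genotype of 0.483, 0.540, 0.510 and 0.540. Of these, THNSL2 and pmt met the rule without zbtb24 mutant replicate 3, as did cyp2x8, GPT and hpxa.

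Among the fuel genes, fabp4a, a fatty acid binding protein, had 77.5, 61.3 and 22.6 FPKM in zbtb24 mutants, 96.2, 102 and 79.95 in double mutants, 115, 94.5 and 115 in mda5 mutants and 134, 150.1 and 173 in WT. COX5B, a subunit of mitochondrial complex IV, had 74.9, 68.7 and 33.7 FPKM in zbtb24 mutants, 115, 91.2 and 90.99 in double mutants, 114, 102 and 125.4 in mda5 mutants and 155, 173 and 222 in WT. In both genes the double and mda5 mutants lay between the other genotypes and the WT libraries were the 3 highest. A second COX5B row was expressed more highly and overlapped between zbtb24 mutants and WT, at 253, 261 and 249 FPKM in zbtb24 mutants, 275, 317 and 309 in double mutants, 328, 267 and 226 in mda5 mutants and 293, 260.3 and 326 in WT. oxct1b, which encodes an enzyme of ketone body use, had 29.3, 29.2 and 7.29 FPKM in zbtb24 mutants, 58.6, 38.6 and 30.7 in double mutants, 54.8, 31.4 and 32.6 in mda5 mutants and 51.8, 47.6 and 61.3 in WT. Without zbtb24 mutant replicate 3 none of these 3 fuel genes met the rule, their ratios to the nearest genotype being 0.747, 0.725 and 0.739. Summed liver markers (fgb, ttr and tfa) were 1088, 1043 and 514 FPKM in zbtb24 mutants, 2321, 1993 and 1077 FPKM in double mutants, 1514, 771 and 1219 in mda5 mutants and 1369, 1679 and 2100.4 FPKM in WT, and their part in these levels was not tested. In a list of proteins secreted by the liver, 24 genes were tested, and no matched gene was among the 58. The list names hemopexin as hpx, but the selected hpxa row was not matched to that symbol. At an adjusted p under 0.05, limma placed 7 of the 24 lower in zbtb24 mutants than in WT, and 2 without replicate 3. Among the 7 were fgb and fgg of fibrinogen and hp, haptoglobin. These were 29.2% of the 24, against 6.65% of all features, and 8.33% against 3.24% without replicate 3. Like the shares of the other lists, they are given only for scale.

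Most of the matrix and skeletal genes encode secreted proteins of connective tissue, bone and teeth. The 4 most expressed were ASPN, mfap2, COL6A2 and SPON2. ASPN, a small leucine-rich proteoglycan that binds collagen, had 31.8, 29.8 and 6.14 FPKM in zbtb24 mutants, 47.5, 36.9 and 35.1 in double mutants, 43.6, 42.4 and 53.6 in mda5 mutants and 65.4, 67.02 and 70.26 in WT. mfap2, a protein of elastic microfibrils, had 29.4, 24.2 and 5.37 FPKM in zbtb24 mutants, 42.5, 33.7 and 32.1 in double mutants, 42.3, 37.3 and 45.8 in mda5 mutants and 48.3, 47.4 and 54.95 in WT. COL6A2, a chain of collagen VI, had 25.9, 23.3 and 6.597 FPKM in zbtb24 mutants, 39.2, 30.5 and 26.7 in double mutants, 33.1, 28.99 and 51.1 in mda5 mutants and 41.9, 52.2 and 56.5 in WT. In all 3 of them zbtb24 mutant replicates 1 and 2 lay near the lowest double mutant library and replicate 3 far below. SPON2, a spondin of the extracellular matrix, had 20.9, 18.5 and 7.13 FPKM in zbtb24 mutants, 26.1, 29.2 and 24.4 in double mutants, 25.6, 35.8 and 29.4 in mda5 mutants and 35.5, 25.7 and 34.03 in WT.

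The remaining 7 were enam, named after the enamel protein of mammalian teeth, FIBIN, named for fin bud initiation, HTRA1, a secreted protease, hapln1a, which links hyaluronan to proteoglycans, mgp, an inhibitor of calcification, clec11a, a growth factor of bone in mice, and OSR2, a zinc finger transcription factor. enam had 15.1, 14.8 and 2.49 FPKM in zbtb24 mutants, 26.1, 17.9 and 20.8 in double mutants, 24.9, 18.6 and 28.4 in mda5 mutants and 36.4, 39.2 and 36.4 in WT. hapln1a had 8.77, 8.65 and 2.13 FPKM in zbtb24 mutants, 16.1, 9.77 and 10.1 in double mutants, 13.9, 10.3 and 15.6 in mda5 mutants and 13.3, 19.8 and 21.5 in WT. OSR2 differed from this picture, with 2.13, 2.17 and 1.399 FPKM in zbtb24 mutants, 4.12, 4.51 and 3.32 in double mutants, 3.66, 3.45 and 3.69 in mda5 mutants and 5.51, 3.48 and 3.97 in WT. OSR2 was the only one of the 11 that met the rule without zbtb24 mutant replicate 3. For the other 10 the mean of replicates 1 and 2 was 0.649 to 0.773 times that of the nearest genotype. Over the 11 genes, replicate 3 was 0.166 to 0.651 times the mean of replicates 1 and 2, with a median of 0.305. Second rows named FIBIN and HTRA1 changed less, with ratios of the zbtb24 mutant mean to the nearest genotype of 0.782 and 0.816.

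The other collagen VI chains, which join with the product of COL6A2 in one protein, were also lowest in zbtb24 mutant replicate 3 but were not selected. col6a1 had 36.1, 28.96 and 8.34 FPKM in zbtb24 mutants, 49.2, 31.6 and 32.6 in double mutants, 44.98, 41.4 and 66.7 in mda5 mutants and 55.4, 69.6 and 65.96 in WT. COL6A3 had 52.9, 38.6 and 10.9 FPKM in zbtb24 mutants, 67.4, 54.1 and 45.3 in double mutants, 55.05, 48.5 and 84.5 in mda5 mutants and 84.4, 92.9 and 114 in WT. Both exceeded the ratio of 0.6, at 0.647 and 0.614, and in both zbtb24 mutant replicate 1 lay above at least 1 double mutant library, so that the genotypes overlapped. In a list of genes of collagen, bone and cartilage, 19 remained after hapln1a, its only selected gene, was set aside. In replicate 3, 13 of these had less than 0.5 times the mean level of the other zbtb24 mutant libraries, against 5.96% of all rows. The median ratio was 0.288. The mean of zbtb24 mutant replicates 1 and 2 over that of WT had a median of 0.952 in this list. In the comparison of zbtb24 mutants against WT, limma placed 5 of the 19 lower (col1a2, col5a1, sparc, bglap and phex) and 1 higher (acana) at an adjusted p under 0.05. Without replicate 3 it placed 1 lower and 0 higher. Of all 21623 features tested, 6.65% were lower and 4.92% higher with replicate 3, and 3.24% were lower without it. Low levels were not limited to lists that match the groups named here. In 8 of 13 genes of the mitochondrial genome, replicate 3 lay below 0.5 times the mean of replicates 1 and 2, against 5.96% of all rows. The median ratio was 0.498, against 0.976 over all rows. Against WT, limma placed 5 of 9 blood genes (55.6%) and 9 of 23 phototransduction and lens genes (39.1%) lower, and 2 and 5 of them without replicate 3.

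All 6 striated muscle genes were selected only with that library. They were MYL2 and MYBPC2, parts of the thick filament, CASQ2, which stores calcium in the sarcoplasmic reticulum, PFKM, a phosphofructokinase of glycolysis, cav4b, a caveolin, and ABRA, an actin-binding protein of striated muscle. CASQ2 had 16.04, 16.97 and 6.59 FPKM in zbtb24 mutants, 19.7, 27.1 and 20.5 in double mutants, 21.4, 24.3 and 22.6 in mda5 mutants and 24.4, 24.6 and 32.2 in WT. ABRA had 5.49, 6.02 and 0.507 FPKM in zbtb24 mutants, 6.58, 10.3 and 6.78 in double mutants, 14.1, 7.43 and 10.8 in mda5 mutants and 8.66, 10.6 and 12.8 in WT. Levels in replicate 3 were 0.0880 to 0.495 times the mean of replicates 1 and 2 over the 6 genes, with a median of 0.232, and 0 of the 6 met the rule without it. Second rows named PFKM and MYL2 changed less, with ratios of the zbtb24 mutant mean to the nearest genotype of 0.684 and 1.06. In a list of fast muscle genes, 12 were tested, and no matched gene was among the 58. The list names mybpc2a and mybpc2b, but the selected MYBPC2 row was not matched to either symbol. Of the 12, pvalb3, pvalb4 and mybpc2b were lower in zbtb24 mutants than in WT at an adjusted p under 0.05 in limma. Without replicate 3, 2 of the 12 were lower. These were 25% of the 12, against 6.65% of all features, and 16.7% against 3.24% without replicate 3. Replicate 3 lay below 0.5 times the mean of replicates 1 and 2 in 3 of these 12 genes (against 5.96% of all rows), with a median ratio of 0.609. In a list of heart and slow muscle genes it did so in 0 of the 8 with at least 1 FPKM, with a median ratio of 0.743. There limma placed 1 of 9 lower, cmlc1 (11.1%, against 6.65% of all features), and 0 without replicate 3 (against 3.24%). The 2 fast muscle markers that could be matched, summed, had 25784, 26139 and 15069 FPKM in zbtb24 mutants, 30109, 40104 and 27429.7 FPKM in double mutants, 21001, 21545 and 22925 in mda5 mutants and 30155.5, 28233 and 38321 FPKM in WT. They were lowest in zbtb24 mutant replicate 3, but all mda5 mutant libraries lay below zbtb24 mutant replicates 1 and 2. Their part in the levels of the 6 genes was not tested.

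**Figure D2:**
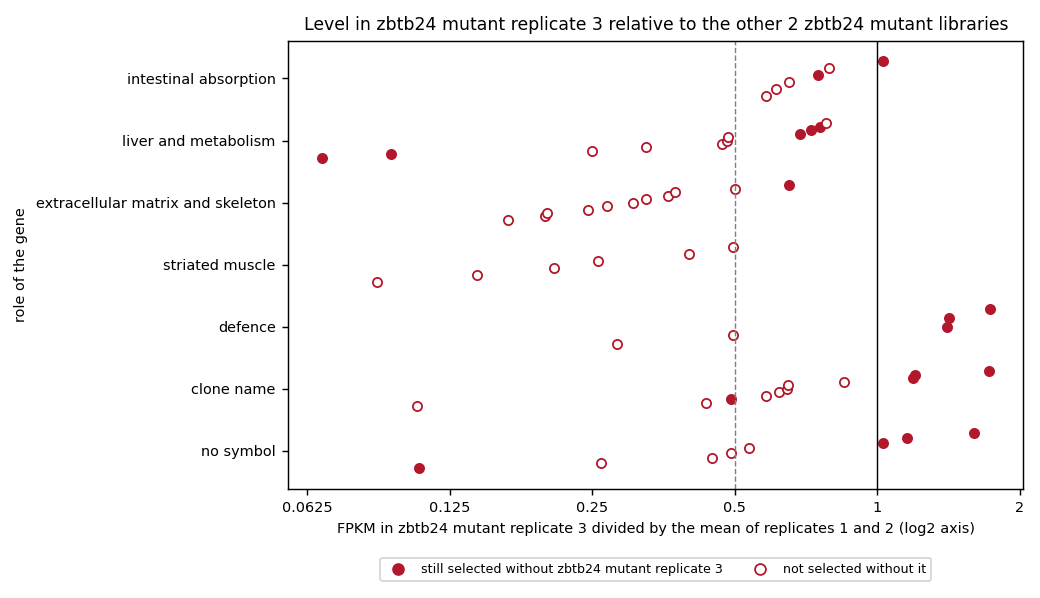
FPKM in zbtb24 mutant replicate 3 divided by the mean of zbtb24 mutant replicates 1 and 2 (x, log2 axis) for each of the 58 genes, in rows by role, with filled points for the 19 genes that met the rule without replicate 3. All 6 muscle genes lie left of the dashed line at 0.5, as do 9 of 11 matrix genes and 0 of 6 intestinal genes.

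Among the genes grouped under defence, 3 of 5 met the rule without zbtb24 mutant replicate 3, and these 3 were higher in replicate 3 than the mean of replicates 1 and 2 (ratios up to 1.73). mslna is named after mesothelin, a surface protein of the mesothelium, and was placed here for want of a better group. It had 0.683, 1.15 and 1.29 FPKM in zbtb24 mutants, 8.05, 2.04 and 1.91 in double mutants, 4.41, 2.81 and 4.74 in mda5 mutants and 6.48, 8.52 and 12.7 in WT. Double mutant replicate 1 reached the WT range while double mutant replicates 2 and 3 lay nearer to the zbtb24 mutants. SERPINB1, named after an inhibitor of neutrophil proteases, had 0.325, 0.328 and 0.564 FPKM in zbtb24 mutants, 0.7595, 1.66 and 1.77 in double mutants, 1.29, 0.648 and 1.88 in mda5 mutants and 1.03, 1.34 and 1.54 in WT. A second SERPINB1 row had far higher levels and a ratio of 0.956 to the nearest genotype. crfb12, a class II cytokine receptor, had 5.48, 3.09 and 5.99 FPKM in zbtb24 mutants, 11.73, 8.405 and 6.86 in double mutants, 8.93, 7.8 and 7.82 in mda5 mutants and 10.3, 10.9 and 12.3 in WT. spink2.8, a Kazal type protease inhibitor, and leap2, an antimicrobial peptide of liver and gut, depended on replicate 3, which lay at 0.283 and 0.496 times the mean of the other 2 zbtb24 mutant libraries. In a list of RNA sensing and interferon response, 20 genes were tested and none of the list is among the 58. At an adjusted p under 0.05 in limma, 10 were higher in zbtb24 mutants than in WT and 0 lower, against 4.92% and 6.65% of all features. Without replicate 3, 9 were higher, against 444 of all 21623 features, and the median log2 change of the list went from 1.23 to 0.86. In the 19 of them with at least 1 FPKM, replicate 3 had a median ratio of 1.24 to the mean of replicates 1 and 2.

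Of the 19 rows with a clone name or no symbol, 8 met the rule without zbtb24 mutant replicate 3. si:dkey-288d17.1 had 0.331, 0.4897 and 0.704 FPKM in zbtb24 mutants, 3.94, 0.826 and 0.892 in double mutants, 1.64, 1.46 and 1.92 in mda5 mutants and 2.34, 3.69 and 4.07 in WT. As for mslna, a single high double mutant library, replicate 1, raised the double mutant mean. si:dkeyp-97a10.2 had 6.05, 5.83 and 7.08 FPKM in zbtb24 mutants, 19.6, 10.6 and 10.5 in double mutants, 12.01, 10.7 and 12.8 in mda5 mutants and 14.9, 15.2 and 20.6 in WT, with the zbtb24 mutant libraries close together. ENSDARG00000102894 had 1.65, 0.939 and 0.1396 FPKM in zbtb24 mutants, 2.75, 2.24 and 2.32 in double mutants, 4.26, 4.17 and 4.07 in mda5 mutants and 4.11, 5.297 and 4.58 in WT, a gene in which the double mutant libraries lay apart from both genotypes with functional zbtb24. ENSDARG00000098875 had 0.681, 0.333 and 0.813 FPKM in zbtb24 mutants, 1.38, 1.86 and 1.26 in double mutants, 1.62, 2.27 and 3.06 in mda5 mutants and 2.66, 6.23 and 1.703 in WT. si:dkey-74h17.3 had 0.419, 0.586 and 0.247 FPKM in zbtb24 mutants, 1.05, 0.616 and 1.31 in double mutants, 1.09, 1.79 and 1.07 in mda5 mutants and 1.74, 2.33 and 1.62 in WT. In this last row double mutant replicate 2 lay just above zbtb24 mutant replicate 2. The most expressed row without a symbol, ENSDARG00000092143, had 21.04, 20.4 and 5.41 FPKM in zbtb24 mutants, 34.6, 24.4 and 27.7 in double mutants, 27.7, 26.1 and 32.2 in mda5 mutants and 36.2, 37.99 and 52.4 in WT, with replicate 3 far below the other 2 zbtb24 mutant libraries, as in the matrix genes.

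**Figure D3:**
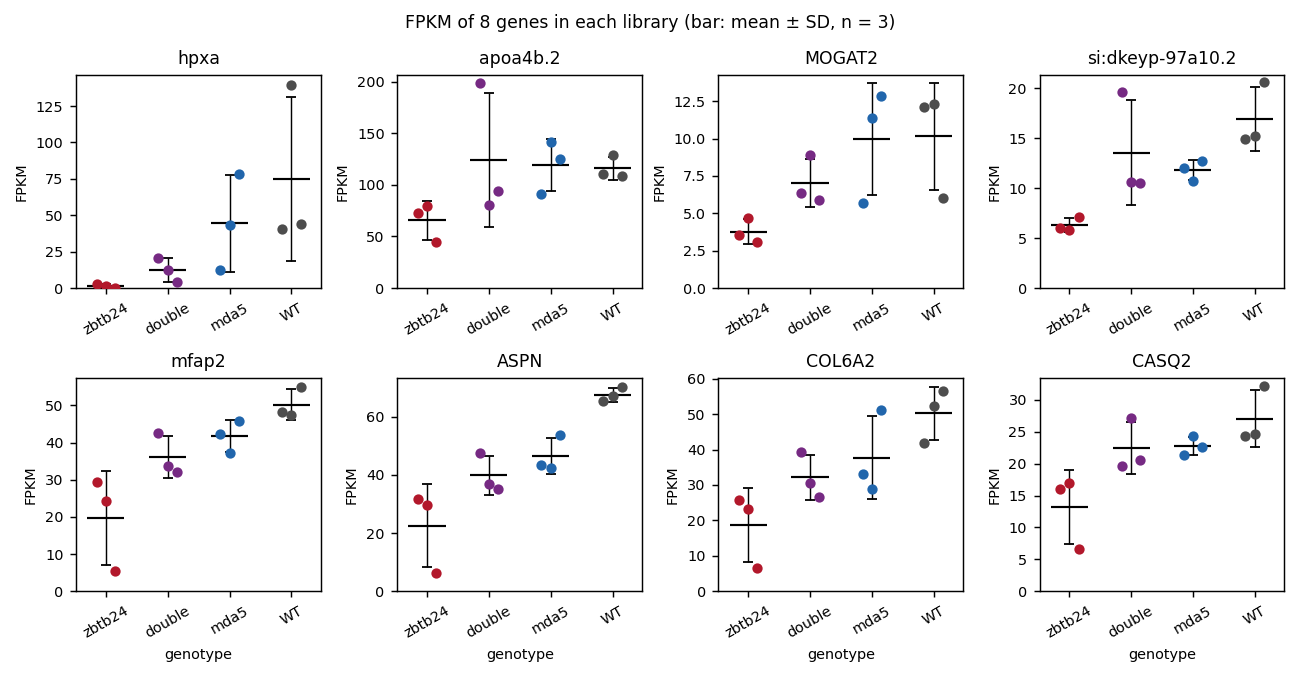
FPKM of 8 of the genes in each library (points), with the mean and SD of each genotype (n = 3), zbtb24, double and mda5 mutants and WT from left to right. In mfap2, ASPN, COL6A2 and CASQ2 a single zbtb24 mutant library, replicate 3, lies far below the other 2, while in si:dkeyp-97a10.2 the 3 zbtb24 mutant libraries lie between 5.83 and 7.08 FPKM.

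The selection set the double mutants, mda5 mutants and WT above the zbtb24 mutants without contrasting them with each other. It used their values all the same, since each genotype had to stay clear of the zbtb24 mutants, and a gene lowered as far in double mutants as in zbtb24 mutants could not enter. The shares among the 58 are therefore conditioned on the rule, those of all rows or features are not, and they are given beside them only for scale. WT had the highest mean of the 3 in 46 of the 58 genes (79.3%, against 36.3% of the 19424 rows). The double mutants had the lowest in 35 (60.3%, against 28.9%). The order double mutants below mda5 mutants below WT held in 30 (51.7%, against 15.02%). Within the double mutants, replicate 1 was the highest library in 40 of the 58 genes (69.0%, against 36.2%), and replicate 3 in 2. The median difference of the 58 genes from their means over the 12 libraries, on the log2(FPKM + 0.5) scale, was 0.37, 0.08 and -0.14 in the 3 double mutant libraries, 0.09, -0.00 and 0.38 in the mda5 mutants and 0.42, 0.55 and 0.72 in WT.

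In double mutants against WT, limma called 0 of the 58 genes at an adjusted p under 0.05, where 0.402% of all features tested were called. In all 3 comparisons the spread came from all 12 libraries, including the zbtb24 mutant values used by the rule. Where zbtb24 mutant replicate 3 lay far below the other zbtb24 mutant libraries, the SE was wider. For ASPN the SE was 0.476 with that library and 0.129 without it. The counts called among the 58 thus depended partly on the selection. At an unadjusted p under 0.05, 12 of the 58 were lower in double mutants (20.7%, against 5.54% of all features) and 0 were higher (against 6.08%). The median log2 change was -0.44, against 0.00 over all features, and 52 of the 58 changes were below 0 (89.7%, against 49.2%). In 19 of the 58 (32.8%, against 9.32%) all double mutant libraries lay below all WT libraries. The smallest adjusted p in limma was 0.209, for spink2.8, with a log2 change of -1.10 ± 0.32 (SE). spink2.8 had 2.54, 2.77 and 2.34 in double mutants, against 6.69, 5.73 and 5.77 in WT, without overlap. GPT followed with a log2 change of -0.92 ± 0.28 (SE, adjusted p = 0.234 in limma) and COX5B with -0.88 ± 0.27 (SE, adjusted p = 0.238 in limma). hpxa had the most negative change, -2.54 ± 0.83 (SE, adjusted p = 0.270 in limma). Without zbtb24 mutant replicate 3, which enters this comparison only through the shared estimate of spread, ASPN and COX5B were called lower, with adjusted p-values of 0.0425 and 0.0441 in limma. Without double mutant replicate 1, mslna and si:dkey-288d17.1 were called lower, both with an adjusted p of 0.0352 in limma.

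In mda5 mutants against WT, which uses the same WT libraries, limma also called 0 of the 58, and 0.00462% of all features. At an unadjusted p under 0.05, 7 were lower in mda5 mutants (12.1%, against 7.27%) and 0 higher (against 6.3%). The median log2 change was -0.37, against -0.02 over all features, with 52 of 58 changes below 0 (89.7%, against 52.8%). All mda5 mutant libraries lay below all WT libraries in 20 of the 58 (34.5%, against 12.6%). The smallest adjusted p in limma was 0.322, for si:dkeyp-73d8.9, with a log2 change of -0.61 ± 0.19 (SE). si:dkeyp-73d8.9 had 1.67, 1.75 and 1.95 in mda5 mutants, against 2.96, 2.98 and 3.07 in WT. The median over the 11 matrix genes was -0.44 with all 11 below 0, and over the 6 intestinal genes -0.02 with 4 below 0.

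In double against mda5 mutants, the comparison of zbtb24 genotypes without the RNA sensor, limma called 0 of the 58 and 0.134% of all features. At an unadjusted p under 0.05, 1 was lower in double mutants (1.72%, against 5.09%) and 0 higher (against 7.18%). The median log2 change was -0.11, against 0.02 over all features, with 38 of 58 changes below 0 (65.5%, against 46.9%). All double mutant libraries lay below all mda5 mutant libraries in 2 of the 58 (3.45%, against 9.15%). Low shares in this comparison are partly fixed by the rule, which left out genes whose double mutant levels were near those of the zbtb24 mutants. The 1 gene was ENSDARG00000075425, with 4.45, 1.79 and 1.67 in double mutants, against 4.47, 3.96 and 3.43 in mda5 mutants, and a log2 change of -0.61 ± 0.26 (SE, adjusted p = 0.392 in limma). Double mutant replicate 1 was the only one of its group in the range of the mda5 mutants, and without it the adjusted p in limma was 0.0218. hpxa had a log2 change of -1.69 ± 0.83 (SE, adjusted p = 0.441 in limma) and uox one of 0.36 ± 0.23 (SE, adjusted p = 0.557 in limma). In all 3 comparisons the lists of intestinal, liver, muscle, and collagen, bone and cartilage genes had 0 members called by limma in either direction. Few features were called at all, so 0 calls says little about these lists. For the liver, fast muscle, heart and slow muscle, intestinal, and collagen lists, median log2 changes in mda5 mutants against WT were -0.57, -0.45, -0.34, 0.09 and -0.10. Double mutants against WT had -0.15, -0.08, -0.23, 0.05 and -0.02 in that order. In zbtb24 mutants against WT they were -0.73, -0.54, -0.49, -0.55 and -0.84. Without zbtb24 mutant replicate 3 these last medians were -0.52, -0.26, -0.38, -0.51 and -0.06, so that of the collagen list rested mostly on that library.

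**Figure D4:**
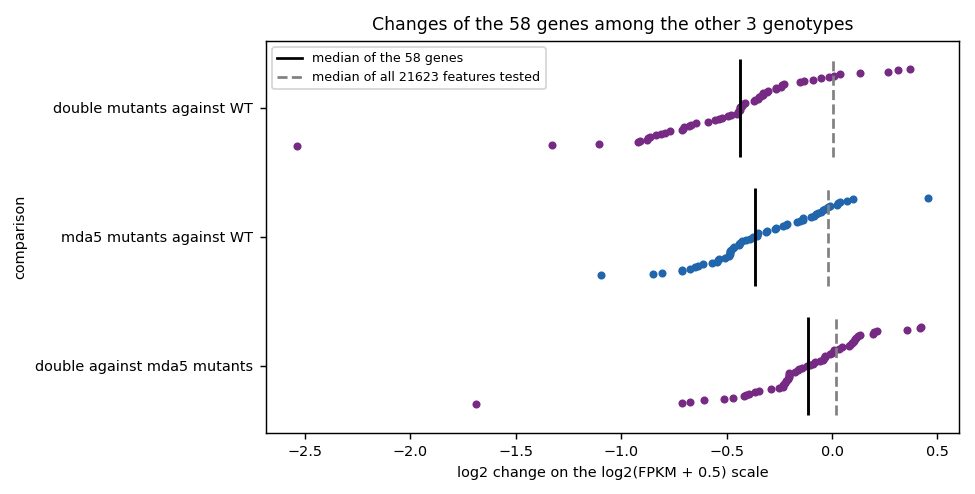
Log2 change of each of the 58 genes (points, sorted) in the 3 comparisons among the other genotypes, on the log2(FPKM + 0.5) scale, with the median of the 58 genes (solid line) and of all 21623 features tested (dashed line). The medians of the 58 genes lie at -0.44, -0.37 and -0.11 from top to bottom, and none of the points passed the adjusted threshold.

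Near the limit of the rule the genes formed no gap. The 3 genes just inside had ratios to the nearest genotype of 0.595 (MYBPC2), 0.597 (COX5B) and 0.5996 (uox). The 3 just outside, which met every other condition, had 0.601 (FSTL1, a secreted glycoprotein), 0.602 (PC, pyruvate carboxylase) and 0.604 (ENSDARG00000102467). The same rule applied to the other genotypes found 4 rows lowered only in double mutants, 10 only in mda5 mutants and 27 only in WT, and its mirror image found 65 rows raised only in zbtb24 mutants.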

How the data were processed

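Polyadenylated RNA from pools of 10 whole larvae was sequenced in stranded, paired-end libraries. The authors trimmed reads with Trimmomatic 0.33, mapped them to GRCz10 with TopHat2 2.1.1 and quantified genes with Cufflinks 2.2.1, and the deposited values are FPKM scaled between the 12 libraries by Cuffnorm. All 12 columns of sample values were used and 0 were left over. FPKM are not counts, so depth is unknown and precision rests on the spread between replicates. A few features dominated the summed FPKM, which differed between libraries. The median over rows with a mean of at least 1 FPKM ran from 5.61 to 5.82 per library.

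Symbols came from a gene table that named 26418 of the 32271 features. The members and gene lists were chosen with earlier results of these data known. Lists held 556 symbols, 405 of which matched, and the selected genes were set aside from them. Gene order came from RefSeq for GRCz12tu, another assembly, so no coordinates are given, and no sequences were used. Genes are named when they are among the 10 members with the highest mean over the other 9 libraries, the 10 with the lowest ratio, in a list, or among the 3 on either side of the limit. Other names were chosen after their values were seen.

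The 21623 features that averaged 0.5 FPKM or more, all 58 members among them, were tested as log2(FPKM + 0.5) in limma 3.58.1 (R 4.3.3) with 4 genotype means, a mean-variance trend and Benjamini-Hochberg adjustment within each comparison (threshold 0.05, two-sided, 8 residual degrees of freedom). This scale understates changes of low genes. The fit was tested on simulated data. Alternatives were other pseudocounts, filters and scalings, no trend, a replicate block, fits of only the compared groups, and each library left out in turn. Tables were handled in Python 3.11.15 with pandas 2.3.3.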

Additional observations from a re-analysis of the deposited data

How the results depend on the processing

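The count of members moved with the limits of the rule: 37 at a mean of at least 5 FPKM, 14 at a ratio of at most 0.5 and 164 at a ratio of at most 0.7. With single libraries left out it ran from 44 (without zbtb24 mutant replicate 3 or without double mutant replicate 1) to 264 (without zbtb24 mutant replicate 1), with 163 without zbtb24 mutant replicate 2 and 121 without double mutant replicate 3. The 44 held 19 of the 58 without zbtb24 mutant replicate 3 and 37 without double mutant replicate 1. Rescaling to 1 median per library kept 54 of the 58 and quantile normalization 47. In the 3 comparisons among the other genotypes, 0 members were called under every pseudocount, filter, scaling and fit tried with all libraries. With libraries left out, calls ran from 0 to 2 in double mutants against WT, from 0 to 1 in double against mda5 mutants and stayed at 0 in mda5 mutants against WT. The median log2 change then ran from -0.57 to -0.33 in double mutants against WT, from -0.29 to -0.01 in double against mda5 mutants and from -0.47 to -0.27 in mda5 mutants against WT. Among double mutants, mda5 mutants and WT, deviations of libraries with the same replicate number correlated at -0.12 to 0.17. The zbtb24 mutant libraries were not checked in this way, and such values cannot tell whether pools shared a clutch. The fit with the replicate number as a block called 0 members. Its medians in the 3 comparisons, in the order above, were -0.44, -0.11 and -0.37. They equal those of the main fit by design, since every genotype holds each replicate number, so they are no check. Library depth is unknown, so no counting error can be given for low values.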
